A study of Mus musculus with 36 samples.

Results

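This account covers 10 genes of blood vessel growth and of the vessel wall in mouse skeletal muscle: 4 secreted angiogenic factors, Vegfa, Vegfb, Fgf1 and Angpt1, and 6 genes used as vessel markers, Kdr, Flt1, Pecam1, Cdh5, Tek and Efnb2. They were taken by name from a table of 45802 rows, of which 17873 genes had a value. All 10 had a value in all 36 libraries and all 10 passed the filter on low signals, which kept 13404 genes.

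The libraries came from the soleus, a slow oxidative hindlimb muscle, and the extensor digitorum longus (EDL), a fast glycolytic one, of 1-year-old male mice backcrossed to C57BL/6JBom. Mice with floxed estrogen-related receptor (ERR) genes carried Cre under the human alpha-skeletal actin (HSA) promoter, which is active in muscle fibres and not in vessel cells. Each muscle had 3 knockout classes, ERRalpha mKO, ERRbeta/ERRgamma dmKO and ERRalpha/ERRgamma dmKO, each with its own wild-type littermates, in 12 groups of 3 biological replicates. Chow feeding and housing at about 22 °C were shared by all groups, and 14 of the 22 animals gave both muscles. The sources used here do not say whether the littermates carried floxed alleles without Cre. The columns of the table are coded, so "knockout-labelled" below means a column read as floxed with Cre, and every direction rests on that reading. For 6 EDL columns of the ERRalpha class the class was taken from the animal number they share with a soleus column. The numbers 1 to 3 of the libraries in a group follow the column order and only name them.

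ERRalpha, ERRbeta and ERRgamma (genes Esrra, Esrrb and Esrrg) are orphan nuclear receptors that switch on mitochondrial and fatty acid oxidation genes together with PGC-1 coactivators. VEGF-A, the product of Vegfa, drives capillary growth through the endothelial receptor VEGFR2 (Kdr). VEGFR1 (Flt1) binds VEGF-A with high affinity but signals weakly, and it is the receptor of VEGF-B, a factor made abundantly by heart and oxidative muscle. Angiopoietin-1 (Angpt1) binds the receptor Tie2 (Tek) and keeps vessels mature. PECAM-1 (Pecam1, CD31) and VE-cadherin (Cdh5) are junction proteins of endothelial cells in general, and ephrin-B2 (Efnb2) marks arterial endothelium. The PGC-1alpha and ERRalpha pair is known to induce Vegfa in muscle. The comparison here is whether the secreted factors and the vessel markers moved when ERRs were deleted in the fibres. RNA of whole muscle does not show which cells made a factor.

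The promoters of Vegfb and Vegfa are shown because these are the VEGF ligands among the 10 genes, and that of Flt1 because its product binds both. Each is the 250 bases before a RefSeq start site on GRCm38.p6, in the direction of transcription, with the letters AGGTCA, the half-site read by many nuclear receptors, in capitals wherever they occur.
Vegfb, chr19:6987652-6987901, minus strand: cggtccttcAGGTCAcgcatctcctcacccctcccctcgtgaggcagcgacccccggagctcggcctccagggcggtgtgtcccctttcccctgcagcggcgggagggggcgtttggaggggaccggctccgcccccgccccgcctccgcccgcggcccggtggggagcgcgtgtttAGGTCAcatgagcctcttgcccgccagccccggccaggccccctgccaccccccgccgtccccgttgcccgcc
Vegfa, chr17:46032378-46032627, minus strand: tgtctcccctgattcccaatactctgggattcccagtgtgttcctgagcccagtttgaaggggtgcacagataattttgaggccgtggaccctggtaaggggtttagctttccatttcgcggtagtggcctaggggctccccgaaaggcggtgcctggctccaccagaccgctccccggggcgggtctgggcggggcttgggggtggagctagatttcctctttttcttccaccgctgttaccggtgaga
Flt1, chr5:147726012-147726261, minus strand: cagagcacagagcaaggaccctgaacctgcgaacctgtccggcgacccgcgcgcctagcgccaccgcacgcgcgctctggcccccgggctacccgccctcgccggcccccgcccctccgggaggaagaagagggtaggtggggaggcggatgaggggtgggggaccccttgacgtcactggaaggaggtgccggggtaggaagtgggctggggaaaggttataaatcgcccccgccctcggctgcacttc
The Vegfb window held 2 copies, 241 to 236 and 73 to 68 bases before the start, both on the gene's own strand, and was 76.4% G and C. Of 32851 promoter windows of the same length, 14.0% held AGGTCA on either strand and 1.36% held it at least 2 times. The other 6 windows of members in the RefSeq table, among them both start sites of Vegfa and those of Kdr, Flt1, Tek and Efnb2, held 0 copies. The longer TNAAGGTCA, the response element of the ERRs, which contains AGGTCA, lay in 1.1% of all windows and in none of these 7. Promoters of Fgf1, Angpt1, Pecam1 and Cdh5 are not shown. A match of letters is a description of the sequence and no evidence of binding.

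Values are quantile-normalized log2 signals per gene, so a difference of 1 is a doubling, and a gene is called changed where limma's adjusted p over all genes kept was under 0.05. The normalization removed the sequencing depth, which is unknown, and 13667 to 14951 genes had a value in a library. The muscle labels held: Myh7, the slow myosin heavy chain, lay between 9.13 and 10.21 in the 9 wild-type soleus libraries and between -2.48 and 2.33 in the 9 wild-type EDL libraries, while Myh4, the fastest myosin, lay between 11.67 and 11.92 in EDL and between 3.27 and 8.38 in soleus. Esrra was lower in the EDL of the ERRalpha/ERRgamma class, by 2.23 (SE 0.12, log2), and by 0.57 in its soleus, but differed by -0.19 in EDL and 0.33 in soleus of the ERRalpha class, neither called. Esrrg was higher, not lower, where it was called: by 1.21 and 0.51 in soleus and EDL of the ERRalpha/ERRgamma class, 1.09 in soleus of the ERRbeta/ERRgamma class and 0.61 in EDL of the ERRalpha class. Esrrb, not among the genes deleted in that class, was lower by 1.60 in EDL of the ERRalpha/ERRgamma class (log2 change -1.60, SE 0.21). The signal is summed over a gene and the sources used here do not name the deleted exons, so these genes check the labels in part only. In 3 libraries the summed level of 5 red blood cell genes, globins and Alas2, stood far above the rest of their group: 4331 in wild-type EDL library 2 of the ERRalpha/ERRgamma class against 558 and 348, 2414 in knockout-labelled EDL library 3 against 459 and 449, and 3927 in wild-type soleus library 2 against 675 and 763.

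Vegfb was the member that moved most. It fell in EDL of the ERRalpha class, in soleus of the ERRbeta/ERRgamma class and, most deeply, in both muscles of the ERRalpha/ERRgamma class. The gene lies on the minus strand of chromosome 19 from 6982473 to 6987651 (GRCm38).

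Wild-type EDL libraries of the ERRalpha/ERRgamma class read 5.77, 6.07 and 6.07 and knockout-labelled ones 4.05, 4.20 and 4.15. The groups were far apart, with every knockout-labelled library below every other group of the series. The difference was -1.84 (SE 0.091, 95% interval -2.02 to -1.65, limma adjusted p = 1.37e-15), which left 28.0% of the wild-type level. The soleus values of the same class were 6.08, 6.25 and 6.26 against 4.76, 4.85 and 4.65. Again no libraries overlapped, and the difference of -1.44 (SE 0.091, adjusted p = 6.65e-12) left 36.7% of the wild-type level. By p-value Vegfb ranked 28 of 13358 genes tested in EDL and 3 of 13385 in soleus. Without the libraries high in red blood cell genes the change was -1.79 or -1.85 in EDL, leaving out wild-type library 2 or knockout-labelled library 3, and -1.42 in soleus.

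Of the single-receptor class, EDL libraries read 5.91, 5.79 and 6.08 in wild type and 5.32, 5.29 and 5.33 when knockout-labelled. This was a fall of 0.61 (log2 change -0.61, SE 0.091, adjusted p = 1.08e-04) to 65.5% of wild type. Soleus of the ERRalpha class read 6.19, 6.14 and 5.89 against 6.08, 5.94 and 5.86, overlapping, with a difference of -0.11 (95% interval -0.30 to 0.07, adjusted p = 0.72). The ERRbeta/ERRgamma class had its larger difference in soleus. Its soleus libraries read 5.95, 5.86 and 5.94 against 5.18, 5.47 and 5.21, a change of -0.64 (SE 0.091, adjusted p = 8.18e-05) to 64.4% of wild type. Its EDL libraries read 5.96, 5.99 and 5.93 against 5.66, 5.58 and 5.74, which did not overlap, but the difference of -0.30 was not called (adjusted p = 0.259). So in the ERRalpha class the call was in EDL and in the ERRbeta/ERRgamma class it was in soleus, yet the difference of the change between muscles, called for 0.0151% and 0.21% of all genes and for none of the 10, was not called in either: 0.50 (soleus minus EDL, SE 0.13, adjusted p = 0.239) and -0.34 (adjusted p = 0.276). Fitted on its 6 libraries alone, the soleus fall of the ERRbeta/ERRgamma class had an adjusted p of 0.0882.

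The fall in the ERRalpha/ERRgamma class exceeded that of each other class in both muscles. The 2 classes of a difference have separate wild types, but both differences within a muscle use the same ERRalpha/ERRgamma libraries. Of all genes 4.81% and 6.87% were called in the EDL differences from the ERRalpha and ERRbeta/ERRgamma classes, and 4.75% and 1.2% in the soleus ones. In EDL the change was more negative by 1.23 (-1.23, SE 0.13, adjusted p = 5.15e-08) than in the ERRalpha class and by 1.54 (-1.54, SE 0.13, adjusted p = 3.83e-10) than in the ERRbeta/ERRgamma class. In soleus the same differences were -1.33 (adjusted p = 1.23e-07) and -0.81 (adjusted p = 4.35e-04). Within the ERRalpha/ERRgamma class where 2.07% of all genes differed between the muscles, EDL and soleus differed by 0.39 (95% interval 0.13 to 0.66, adjusted p = 0.142), and by 0.49 (adjusted p = 0.0369) without wild-type EDL library 1.

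Ordered by mean, the 12 groups of Vegfb ran from 4.14 to 6.20. The lowest was EDL of the knockout-labelled ERRalpha/ERRgamma class at 4.14 ± 0.075 (SD, n = 3), then its soleus at 4.75 ± 0.10. Next came soleus of the knockout-labelled ERRbeta/ERRgamma class at 5.28 ± 0.16 and EDL of the knockout-labelled ERRalpha class at 5.31 ± 0.018, which did not differ beyond their spread, and EDL of the knockout-labelled ERRbeta/ERRgamma class at 5.66 ± 0.081. The remaining 7 groups, the 6 wild-type groups and the knockout-labelled soleus of the ERRalpha class, lay between 5.92 and 6.20. Neighbours among them were closer than the larger of their SDs, though not always closer than the smaller.

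**Figure D1:**
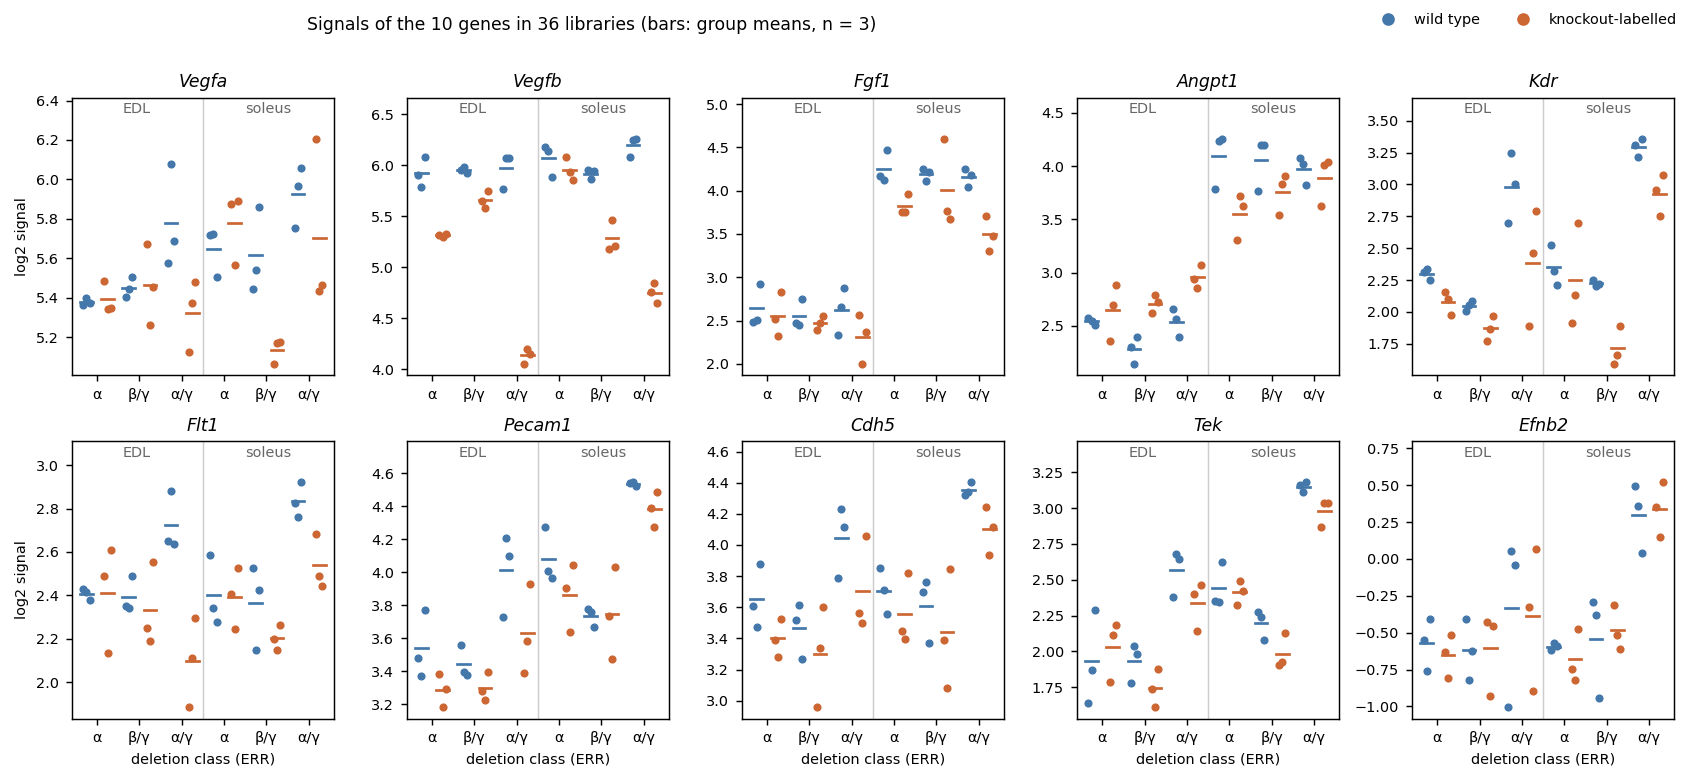
Quantile-normalized log2 signal of each of the 10 genes (vertical axis) in all 36 libraries, by group (horizontal axis), with each point a library and each bar a group mean. Vegfb is lowest in both muscles of the knockout-labelled ERRalpha/ERRgamma class, while Fgf1 and Angpt1 separate by muscle.

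Vegfa fell in 1 of the 6 comparisons, EDL of the ERRalpha/ERRgamma class, by 0.46 on the log2 scale where Vegfb fell by 1.84. The gene lies on the minus strand of chromosome 17 from 46016993 to 46032369. The EDL libraries read 5.58, 6.08 and 5.69 in wild type and 5.12, 5.37 and 5.48 when knockout-labelled. They did not overlap, though the gap was only between 5.48 and 5.58, and the change was -0.46 (SE 0.15, adjusted p = 0.035). The call rests on single libraries: without wild-type library 2, the one high in red blood cell genes, the change was -0.31 (adjusted p = 0.234), and it was also lost without knockout-labelled library 1 or 2.

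Vegfa in the soleus of ERRbeta/ERRgamma mice read 5.44, 5.54 and 5.86 in wild type and 5.06, 5.17 and 5.18 when knockout-labelled. These libraries did not overlap either, and the difference of -0.48 (SE 0.15) just missed the threshold (adjusted p = 0.0573). It passed after recentring each library on the median of its complete genes (-0.53, adjusted p = 0.0356). For ERRalpha/ERRgamma soleus the knockout-labelled libraries spread from 5.43 and 5.47 to 6.21, around wild types of 5.75, 5.97 and 6.06, and the difference was -0.22 (adjusted p = 0.391). Leaving out the library at 6.21 gave -0.48 (adjusted p = 0.0238). Both muscles of the ERRalpha class and the EDL of ERRbeta/ERRgamma mice differed by 0.01 to 0.13, none called.

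Fgf1, acidic fibroblast growth factor, is a mitogen for endothelial and many other cells and lies on the minus strand of chromosome 18 from 38838673 to 38929472. Arhgap26 overlaps it on the other strand, and whether the counting used strand is not given in the sources used here, so their reads may not be told apart. Fgf1 fell in soleus of the ERRalpha/ERRgamma class, from 4.25, 4.04 and 4.18 to 3.71, 3.30 and 3.48. No library overlapped, and the change was -0.66 (SE 0.19, adjusted p = 0.0153), lost without knockout-labelled library 2 or wild-type library 1 (adjusted p up to 0.0895). Soleus of the ERRalpha class, at 4.17, 4.13 and 4.46 against 3.75, 3.75 and 3.96, did not overlap but was not called (-0.43, adjusted p = 0.373).

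Angpt1 lies on the minus strand of chromosome 15 from 42424723 to 42676977, with the annotated transcript Gm17473 antisense to it. It was the only member called higher in any knockout-labelled group. EDL of the ERRalpha/ERRgamma class went from 2.66, 2.57 and 2.39 to 2.94, 2.86 and 3.07, a change of 0.42 (SE 0.15, adjusted p = 0.0442). That call was lost under 8 of 14 alternatives, among them recentring and leaving out any 1 of the 3 knockout-labelled libraries or of wild-type libraries 2 and 3, with adjusted p up to 0.171. EDL of the ERRbeta/ERRgamma class, from 2.30, 2.14 and 2.39 to 2.62, 2.79 and 2.72, differed by 0.43 without overlap and without a call (adjusted p = 0.37). In soleus the differences were negative: -0.54 (adjusted p = 0.0841) in the ERRalpha class, -0.30 (adjusted p = 0.239) in the ERRbeta/ERRgamma class and -0.08 (adjusted p = 0.785) in the ERRalpha/ERRgamma class. Without wild-type library 1 the first of these was called (-0.70, adjusted p = 0.0268).

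Among the receptors, Flt1 and Kdr were called in 1 of the 6 comparisons, the EDL of ERRalpha/ERRgamma mice, where both fell. In bulk muscle, fewer endothelial cells and less RNA of these genes per cell cannot be told apart. Flt1, on the minus strand of chromosome 5 from 147561604 to 147726011, read 2.65, 2.88 and 2.64 in wild type and 1.88, 2.11 and 2.30 when knockout-labelled. The libraries did not overlap, and the change of -0.63 (SE 0.13, adjusted p = 4.54e-04) was kept under all 14 alternatives run for it, from -0.72 to -0.52. In soleus of that class Flt1 read 2.82, 2.76 and 2.92 against 2.68, 2.49 and 2.44, apart but not called (-0.30, adjusted p = 0.132). The EDL change was more negative than that of the ERRalpha class by 0.63 (-0.63, SE 0.18, adjusted p = 0.0318), a call lost under 9 of 20 alternatives: with only these 12 libraries in the fit, and without any 1 of the 3 wild-type libraries or of knockout-labelled libraries 1 and 3 of the ERRalpha class, or of wild-type library 2 and knockout-labelled libraries 1 and 2 of the ERRalpha/ERRgamma class. Against the ERRbeta/ERRgamma class the difference was -0.56 (adjusted p = 0.051), and it was called under the animal block (adjusted p = 0.0477) and without knockout-labelled library 3 (0.0247) or knockout-labelled library 2 of the ERRbeta/ERRgamma class (0.0378).

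Kdr lies on the minus strand of chromosome 5 from 75932827 to 75978458. In EDL of the ERRalpha/ERRgamma class it read 2.70, 3.25 and 3.00 against 1.89, 2.46 and 2.79, so the highest knockout-labelled library passed the lowest wild type. The change was -0.60 (SE 0.17, adjusted p = 0.0114). Without wild-type library 2, high in red blood cell genes, it was -0.47 (adjusted p = 0.0906), and without knockout-labelled library 1 it was -0.36 (adjusted p = 0.152). Without knockout-labelled library 3, also high in red blood cell genes, it was -0.81 (adjusted p = 0.00114). In soleus Kdr did not overlap in the ERRbeta/ERRgamma class, at 2.25, 2.20 and 2.22 against 1.59, 1.66 and 1.89 (-0.51, adjusted p = 0.0677), nor in the ERRalpha/ERRgamma class, at 3.31, 3.21 and 3.36 against 2.95, 2.76 and 3.07 (-0.37, adjusted p = 0.17), and neither was called. Recentring made the first of these a call (-0.57, adjusted p = 0.0346).

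The general endothelial genes were lower on average in the same EDL comparison, short of the threshold. Pecam1, on the minus strand of chromosome 11 from 106654217 to 106750628, read 3.73, 4.21 and 4.10 against 3.39, 3.58 and 3.93 (-0.38, SE 0.14, adjusted p = 0.0568). Leaving out knockout-labelled library 3 gave -0.53 (adjusted p = 0.0120), and leaving out wild-type library 1 gave -0.52 (adjusted p = 0.0136). Recentring gave -0.44 (adjusted p = 0.0226). Leaving out wild-type library 2, high in red blood cell genes, gave -0.28 (adjusted p = 0.251). Cdh5, on the plus strand of chromosome 8 from 104101625 to 104144511 with Gm29682 antisense, differed by -0.34 (SE 0.18, adjusted p = 0.207). Tek, on the plus strand of chromosome 4 from 94739289 to 94874976, differed by -0.23 (SE 0.13, adjusted p = 0.249). Without the same wild-type library these were -0.25 for Cdh5 and -0.18 for Tek. Efnb2, on the minus strand of chromosome 8 from 8617434 to 8661242, read -1.01, 0.06 and -0.04 in the wild-type EDL libraries of this class, and its differences in the 6 comparisons ran from -0.09 to 0.06 with an SE of 0.25.

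Counted over the 10 genes, EDL of the ERRalpha/ERRgamma class had 5 called, 4 lower and 1 higher, where 18.1% of the 13358 genes tested were called, 6.95% lower and 11.1% higher. Of all its calls 61.5% were higher, or 48.9% after recentring. Soleus of that class had 2 called, both lower, where 12.7% of all genes were called and 5.86% lower, and 53.8% of all calls there were higher, or 37.7% after recentring. Soleus of the ERRbeta/ERRgamma class had 1 called, lower, against 6.71% of all genes and 3.55% lower, with 47.1% of all calls higher, or 33.4% after recentring. EDL of the ERRalpha class had 1 called, lower, against 3.28% of all genes and 1.46% lower. EDL of the ERRbeta/ERRgamma class and soleus of the ERRalpha class had 0, where 0.218% and 0.71% of all genes were called by limma. Without wild-type library 2 the count in EDL of the ERRalpha/ERRgamma class was 2, Vegfb and Flt1, and without knockout-labelled library 3 it was 5. Without wild-type library 2 the soleus count was 2.

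In soleus of the ERRalpha/ERRgamma class 7 of the 10 genes, Vegfb, Fgf1, Kdr, Flt1, Pecam1, Cdh5 and Tek, had every knockout-labelled library below every wild-type one. Across all genes 10.6% were separated in that direction and 32.2% in either. In EDL of that class 4 genes were separated, 3 lower and 1 higher. Of all genes 37.9% were separated there, 11.6% lower and 26.4% higher. For the ERRbeta/ERRgamma class 3 were separated in soleus, all lower, and 3 in EDL, 2 of them lower. Of all genes 18% and 15.5% were separated there, and 8.86% and 5.25% were separated lower. For the ERRalpha class 2 were separated in each muscle, all lower, against 23% of all genes in EDL and 16.5% in soleus. The shares separated lower were 9.42% and 8.99%. Genes of the same vessels share their libraries, so these counts are not independent.

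**Figure D2:**
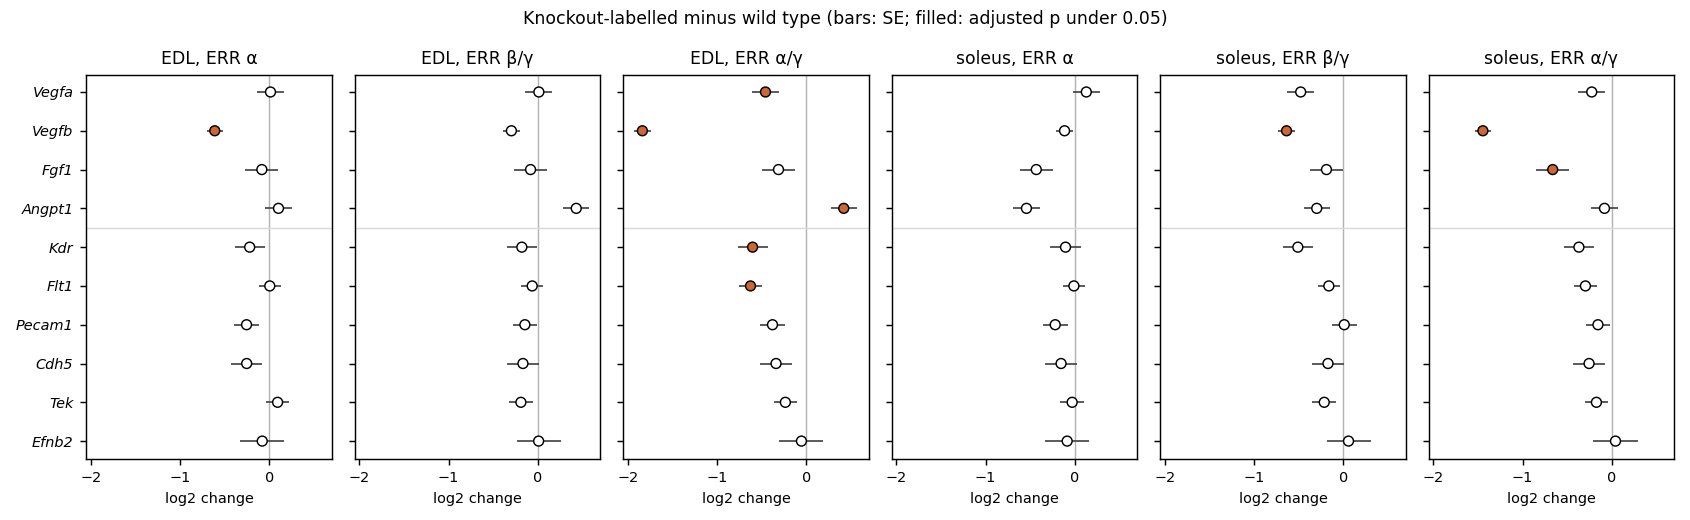
Log2 change of each gene, knockout-labelled minus wild type (horizontal axis), in each of the 6 comparisons, with bars for the SE and filled points for changes called at adjusted p under 0.05. Vegfb reaches -1.84 in EDL and -1.44 in soleus of the ERRalpha/ERRgamma class, and the vessel genes stay between -0.63 and 0.09.

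The wild types of the ERRalpha/ERRgamma class lay above those of the other classes in Kdr, Tek and Flt1, while Vegfb overlapped. In EDL its Kdr lay between 2.70 and 3.25, above the 2.01 to 2.33 of the other 6 wild-type libraries, and in soleus between 3.21 and 3.36, above 2.20 to 2.52. The means differed by 0.81 in EDL and 1.01 in soleus for Kdr, 0.63 and 0.83 for Tek, and 0.32 and 0.45 for Flt1, with no overlap. Vegfb differed by 0.03 and 0.20, with overlap in both muscles. Vegfa was also apart in EDL, at 5.58 to 6.08 against 5.36 to 5.51, with means differing by 0.37, and its knockout-labelled mean of 5.32 stood beside a mean of 5.41 in those other wild types. In soleus Pecam1, Cdh5 and Efnb2 were apart too, by 0.63, 0.70 and 0.87. Class, litter and any batch cannot be told apart here. After its change, Kdr in the knockout-labelled EDL of this class, at 2.38 ± 0.46 (SD, n = 3), had a mean not below the wild types of the ERRalpha class, at 2.30 ± 0.043. Vegfb there was below every wild-type library. Flt1 there, at 1.88 to 2.30, was below every wild-type EDL library, of which the lowest was 2.34. Since the wild types differed by class, levels of the vessel genes are otherwise compared only within a class.

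To set Vegfb against the vessel genes, the mean of the 6 vessel genes was subtracted from Vegfb in each library. Only changes of this difference are read, since its size depends on gene length. In EDL of the ERRalpha/ERRgamma class it was 3.31 in wild type (3.19 to 3.40) and 1.84 when knockout-labelled (1.55 to 2.05). In soleus it was 3.12 (2.97 to 3.19) and 1.87 (1.70 to 2.07). The vessel mean itself was 2.67 ± 0.26 against 2.29 ± 0.27 in EDL (SD, n = 3), with overlapping libraries, and 3.08 ± 0.028 against 2.88 ± 0.091 in soleus. Vegfb was thus lower by more than the vessel mean was. In EDL of the ERRalpha class the difference was 3.71 in wild type and 3.22 when knockout-labelled, and in soleus of the ERRbeta/ERRgamma class 3.66 and 3.18, without overlap in either. EDL of the ERRbeta/ERRgamma class, where the Vegfb change was not called, gave 3.85 (3.82 to 3.88) and 3.67 (3.59 to 3.73), also without overlap. The soleus of ERRalpha mice gave 3.67 and 3.66, with overlap. No p is given, because the list was put together with results of these data in view.

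**Figure D3:**
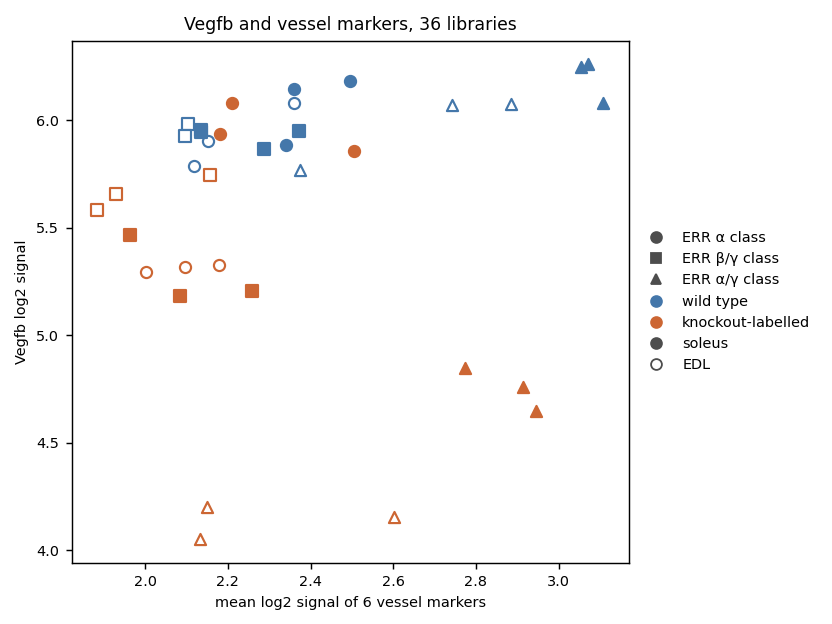
Vegfb (vertical axis) against the mean of the 6 vessel genes (horizontal axis), both as log2 signal, with each point 1 of the 36 libraries. The 6 knockout-labelled libraries of the ERRalpha/ERRgamma class lie at or below 4.85 on the Vegfb axis, under all the others.

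Other genes of the vessel wall, from lists drawn up with the members, were mostly lower in the EDL of ERRalpha/ERRgamma mice. Of 31 further endothelial genes 4 fell and none rose, where 6.95% of all genes fell and 11.1% rose. A negative difference was seen in 27 of 31, against 35.6% of all genes, and in 21 to 28 of 31 in the 4 comparisons of the other classes, against 42.5% to 53.9%. Their median here was -0.31 where the median of all genes was 0.13. The calls with the lowest p were Cd36, a fatty acid transporter of capillary endothelium that fibres also make (-1.07, SE 0.20, adjusted p = 1.80e-04), and Gpihbp1, which holds lipoprotein lipase on capillaries (-0.54, SE 0.16, adjusted p = 0.0165). The other two, named after their values were seen, were Sox18 (-0.79), an endothelial transcription factor, and Eng (-0.58), a co-receptor of the TGF-beta family. Recentring gave 8 lower and a median of -0.37. Of 11 arterial and Notch genes 2 fell, Nrp1, a co-receptor of VEGF-A and VEGF-B (-0.70, SE 0.14), and Notch4 (-0.59, SE 0.20). Of 8 venous and lymphatic genes 1 fell, Ephb4 (-0.52). Of 12 pericyte and smooth muscle genes none was called. Markers of fibroblasts, leukocytes, fat cells, Schwann cells and red blood cells had none called there by limma, with medians of 0.24, 0.14, -1.25, 0.47 and -0.29. The summed level of the fibroblast markers was 380 to 504 in the knockout-labelled EDL libraries and 260 to 359 in wild type, without overlap, and its part in these values was not tested.

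In soleus of that class 28 of the same 31 endothelial genes had a negative difference, against 34.4% of all genes. Their median was -0.20 against 0.11 for all genes. Only Tie1, the orphan partner of Tie2, was called (-0.43, SE 0.11, adjusted p = 0.00807), where 5.86% of all genes fell. Beside this, the summed level of the fibroblast markers was 585 to 690 in the knockout-labelled libraries and 289 to 607 in wild type, and that of the leukocyte markers 128 to 175 against 77.7 to 113. In soleus of the ERRbeta/ERRgamma class Cd36 (-0.90, SE 0.20, adjusted p = 0.00493) and Kank3 (-0.64, SE 0.14, adjusted p = 0.00598) fell, where 3.55% of all genes did. The median of the list was -0.12, and leukocyte sums ran from 44.6 to 387 against 34.6 to 121. The part of these other cells in the vessel values was not tested. Single genes of the mural, arterial and nerve lists were also called. In ERRalpha/ERRgamma soleus these were Kcnj8 of pericytes (-0.67, SE 0.22), Hey2 of arteries (2.28, SE 0.58) and Mbp of Schwann cells (-1.77, SE 0.54). In ERRbeta/ERRgamma soleus it was Cspg4 of pericytes (1.05, SE 0.30). Of all genes 12.7% were called in the first of these comparisons and 6.71% in the second. In the ERRalpha class, and in the EDL of ERRbeta/ERRgamma mice, none of the 31 was called by limma, where 0.218% to 3.28% of all genes were.

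Of 18 other angiogenic ligands tested, Cyr61 (Ccn1), a matrix protein that binds integrins, rose in EDL (1.03, SE 0.28) and soleus (1.04, SE 0.28) of the ERRalpha/ERRgamma class and in soleus of the ERRbeta/ERRgamma class (0.98, SE 0.28). Its relative Ctgf rose in the last of these (1.55, SE 0.39). Pdgfa, a growth factor for mural and mesenchymal cells, rose in soleus of the ERRalpha/ERRgamma class (0.35, SE 0.11) and of the ERRalpha class (0.48, SE 0.11). Recentring ended the first of these Pdgfa calls and left Cyr61 as the 1 ligand higher there. No ligand of this list fell in any of the 6 comparisons. Of all genes 6.95% fell in EDL and 5.86% in soleus of the ERRalpha/ERRgamma class, and 3.55% in soleus of the ERRbeta/ERRgamma class. None of 18 lies near these shares. Genes called in either direction made up 18.1%, 12.7% and 6.71% there, and 0.71% in soleus of the ERRalpha class. Of 14 angiogenesis inhibitors 1 rose in the EDL of ERRalpha/ERRgamma mice, Vash2 (2.04, SE 0.65), a vasohibin that also has growth-promoting roles, and 1 in soleus of the ERRbeta/ERRgamma class, Vash1 (0.73, SE 0.21), a feedback inhibitor made by endothelium. Of all genes 11.1% rose in the first of these comparisons, and 6.71% were called in the second.

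Of 20 genes of the hypoxia pathway, the best known inducer of Vegfa, 3 rose and 3 fell in the EDL of ERRalpha/ERRgamma mice. Their median was 0.25, and the median of all genes, given above, was also positive. Of all genes 11.1% rose and 6.95% fell there. Hif1an, the hydroxylase that holds back HIF transcription, rose (0.52, SE 0.11, adjusted p = 8.09e-04), and Epas1, which encodes HIF-2alpha and is strong in endothelium, fell (-0.56, SE 0.13, adjusted p = 0.00252). The other 4, named after their values were seen, were the prolyl hydroxylases Egln1 (-0.35), Egln3 (-0.94) and Egln2 (0.27) and the HIF partner Arnt (0.27). Epas1 also fell in soleus of that class (-0.48, SE 0.13) and of the ERRbeta/ERRgamma class (-0.51, SE 0.13). Ldha, the glycolytic lactate dehydrogenase subunit, rose in soleus of the ERRalpha/ERRgamma class (0.51, SE 0.10), as did Egln2 (0.30), and Egln1 fell in ERRbeta/ERRgamma soleus (-0.29). Of all genes 12.7% were called in ERRalpha/ERRgamma soleus and 6.71% in ERRbeta/ERRgamma soleus. Recentring left 1 gene higher and 3 lower in EDL, and 1 higher and 3 lower in soleus where 2 had been higher and 1 lower.

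**Figure D4:**
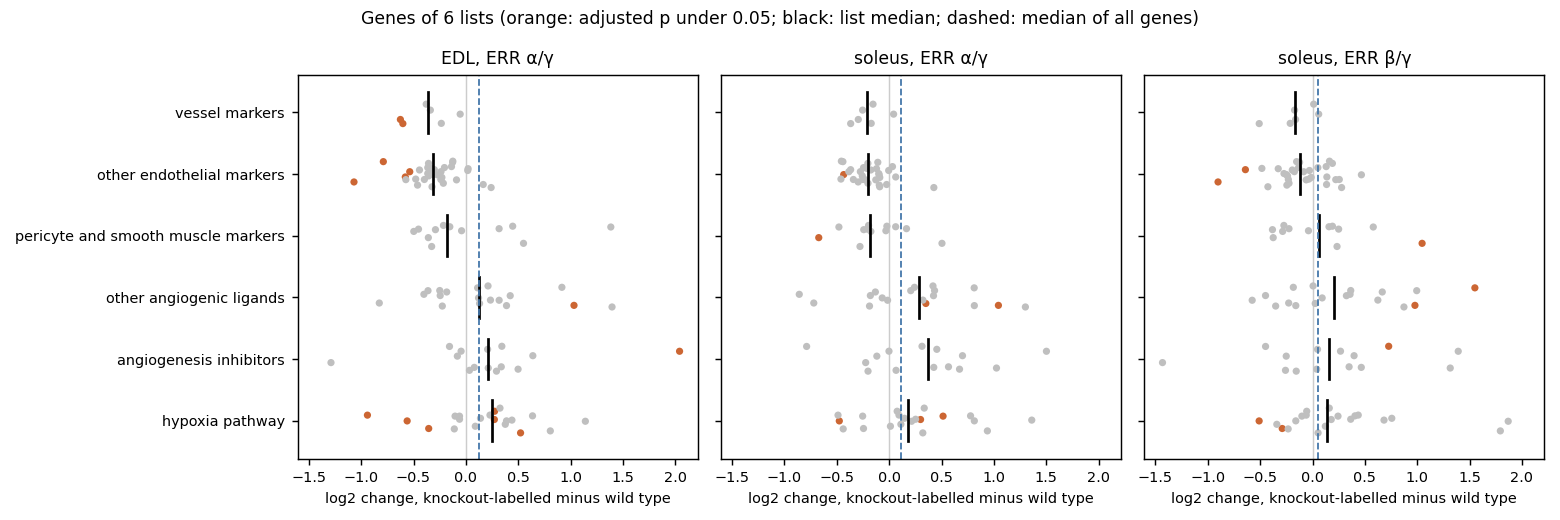
Log2 change, knockout-labelled minus wild type (horizontal axis), of the genes of 6 lists in 3 comparisons, with a point for each gene, in orange where called, and a black mark for the list median. The 31 further endothelial genes centre at -0.31 in EDL and -0.20 in soleus of the ERRalpha/ERRgamma class.

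Vegfb stands 60.7 kb from Esrra on chromosome 19 (6910977 to 6921813, minus strand), a floxed gene of the ERRalpha classes, so its neighbours were looked at. Within 70 kb of Vegfb lie 13 other protein-coding genes besides Esrra, 11 of them tested. In EDL of the ERRalpha/ERRgamma class 3 of the 11 fell, Trpt1 (-0.62, SE 0.13), Dnajc4 (-0.35, SE 0.11) and Macrod1 (-0.29, SE 0.077), and none rose, with a range from -0.62 to 0.50. Of all genes 6.95% fell there and 11.1% rose. In its soleus, where 5.86% of all genes fell, Macrod1 alone fell (-0.28), with a range from -0.35 to 1.40. None of the 11 was called by limma in the other 4 comparisons, where 0.218% to 6.71% of all genes were. Dnajc4 ends 259 bases from the start of Vegfb, so the window printed above lies in that gap, and the EDL change of Dnajc4, -0.35, stands beside -1.84 for Vegfb. These neighbours were chosen after the values of Vegfb were seen.

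**Figure D5:**
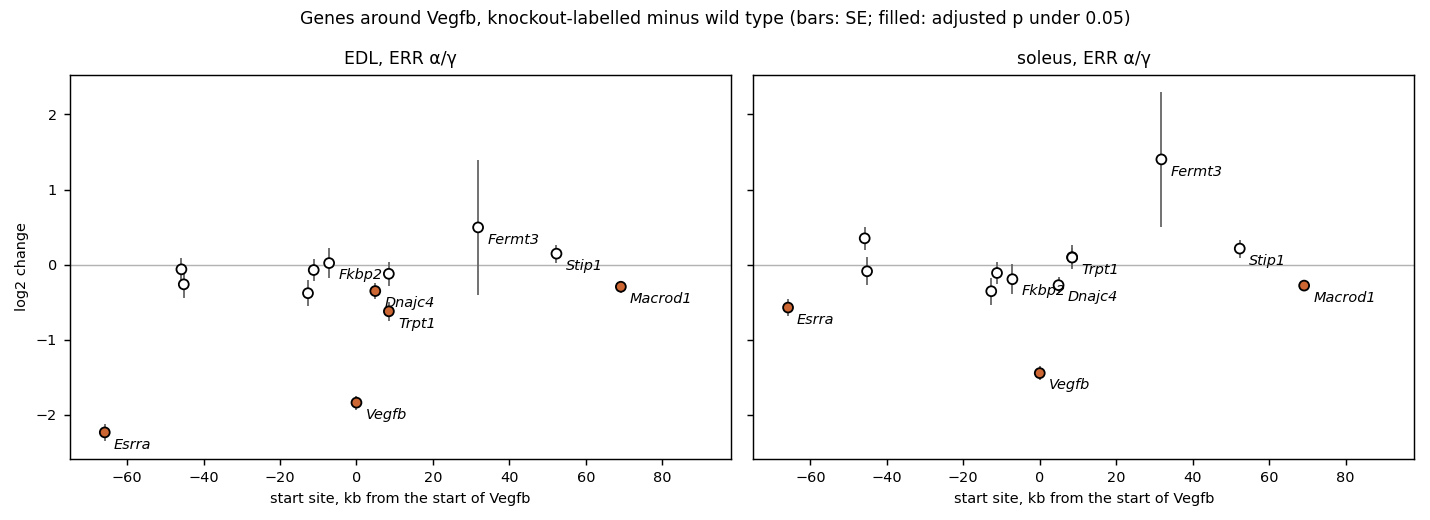
Log2 change of the protein-coding genes around Vegfb in the ERRalpha/ERRgamma class (vertical axis) against their distance from the start of Vegfb in kb (horizontal axis), for EDL and soleus, with bars for the SE. In both muscles Vegfb and Esrra lie below the other genes, which reach down to -0.62 in EDL.

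For Vegfa, Pecam1 and Vegfb, the genes whose 12 group means ran most alike were found by the root mean square difference after centring. The search covered 6700 genes with complete values and a mean at or above the median of the genes kept. For Vegfa they were Epas1 (0.091), Cav2 (0.0988), Adgrf5 (0.102), Pex6 (0.106) and Jam2 (0.126), several of them known from endothelium. Pecam1 had Podxl (0.0863), Kctd10 (0.0955), Sri (0.108), Cd93 (0.112) and Mfge8 (0.115). Vegfb, looked at in the same way after its values were seen, had Cox6b1 (0.164), Cox10 (0.166), Fam195a (0.181), Ndufa8 (0.185) and Tstd3 (0.188). Cox6b1 is a subunit of cytochrome oxidase, Cox10 makes its haem, and Ndufa8 is a subunit of complex I. The 5 genes were picked for group means like those of Vegfb, so changes near its own follow from that choice. In EDL of the ERRalpha/ERRgamma class their changes were, in the order named, -1.51, -1.67, -1.87, -1.95 and -1.94, beside -1.84 for Vegfb. In its soleus they were -1.06, -1.08, -1.30, -0.99 and -1.06, beside -1.44. In EDL of the ERRalpha class they were -0.33, -0.38, -0.06, -0.58 and -0.41, beside -0.61. In soleus of the ERRbeta/ERRgamma class they were -0.24, -0.23, -0.72, -0.10 and -0.29, beside -0.64 for Vegfb, with Fam195a (adjusted p = 6.08e-04) and Cox6b1 (adjusted p = 0.0339) called by limma.

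Among wild types the muscles differed in 4 of the 10 genes, all higher in soleus, where 54.4% of all genes differed and 30.8% were higher in soleus. Fgf1 lay between 4.04 and 4.46 in the 9 soleus libraries (median 4.18) and between 2.33 and 2.93 in the 9 EDL libraries (median 2.51), without overlap. The difference of 1.60 (SE 0.11, adjusted p = 1.96e-13) put soleus at 303% of the EDL level. Angpt1 lay between 3.77 and 4.25 in soleus (median 4.08) and between 2.14 and 2.66 in EDL (median 2.51), a difference of 1.59 (SE 0.085, adjusted p = 1.37e-15). Pecam1 was higher in soleus by 0.45 (SE 0.080, adjusted p = 2.06e-05) and Tek by 0.45 (SE 0.077, adjusted p = 1.13e-05). Vegfb (0.11, SE 0.053, adjusted p = 0.0756), Vegfa (0.19, SE 0.088, adjusted p = 0.0658), Kdr (0.18, adjusted p = 0.121), Flt1 (0.03, adjusted p = 0.78), Cdh5 (0.17, adjusted p = 0.167) and Efnb2 (0.23, adjusted p = 0.181) were not called. Of the 31 further endothelial genes 13 were higher in soleus and 1 was lower, with a median of 0.23, with the lowest adjusted p for Cd36 (1.61, SE 0.11) and Adgrl4 (0.52, SE 0.099). Of the 18 other ligands 10 were higher and 2 lower, among them Vegfd at 1.69 (SE 0.14) and Pdgfa at -1.07 (SE 0.063). With wild-type groups alone in the fit, Kdr (adjusted p = 0.0293) and Vegfa (adjusted p = 0.029) were also called. Leaving out wild-type EDL library 2 of the ERRalpha/ERRgamma class, soleus library 3 of the ERRalpha class or soleus library 1 of the ERRalpha/ERRgamma class made Vegfa and Vegfb calls, as did soleus library 1 of the ERRbeta/ERRgamma class for Vegfa and EDL library 3 of the ERRalpha class for Vegfb, with adjusted p from 0.0203 to 0.0498.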

How the data were processed

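RNA from soleus and EDL of 36 libraries in 12 groups of 3 was made into directional libraries from 400 ng of RNA with 10 PCR cycles, per the labels' protocols. The authors deposited 1 table of quantile-normalized log2 signals per gene. Partek 6.6 and GRCm38.p6 (mm10) stand in the submitters' processing notes, and aligner, counting, strand setting and length scaling were not given in the sources used here. Log base 2 was read from low values: of 18115 values above the lowest of their gene, 2533 lay 0.9 to 1.1 above it. Of the rest, 49 lay 0.59 to 0.79 above, the spacing a natural log would give, and 1466 lay 0.2 to 0.4 above, that of a log10. The base is thus an inference. Depth is unknown, so no interval for counting error is given.

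The table held 45802 rows, of which 27904 had no value. Excluded were 27 rows with symbols turned into dates and 4 rows with duplicated symbols. Genes with a mean at or under the 25th percentile (-5.24) were dropped, empty values counting as the lowest value (-8.21) for this filter only. A single limma fit (3.58.1, R 4.3.3, intensity trend) with a mean for each of the 12 groups gave 14 comparisons, with Benjamini-Hochberg adjustment over all genes kept. A gene without a value in a group was not tested there, and empty values were not imputed. The scripts were tested on simulated data. Genes named beyond the 10 members are the deleted genes, up to 2 called genes per list and comparison with the lowest adjusted p, the 5 genes most alike to Vegfa and to Pecam1, and Myh7 and Myh4. The neighbours of Vegfb, the 5 genes most alike to it and a few further list genes were named after their values were seen. The members and lists were chosen with earlier results of these data known. Locations are from GENCODE vM21 and promoters from RefSeq, which held 6 of the 10 members. Replicates are biological per the series design, and p-values measure the spread between them.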

Additional observations from a re-analysis of the deposited data

Results flagged for a closer look

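The change of Vegfb in the ERRalpha/ERRgamma class differed from that of the other classes by a test of the difference itself (limma, adjusted over all genes). The differences were -1.23 in EDL from the ERRalpha class (adjusted p = 5.15e-08), -1.54 in EDL from the ERRbeta/ERRgamma class (adjusted p = 3.83e-10), -1.33 in soleus from the ERRalpha class (adjusted p = 1.23e-07) and -0.81 in soleus from the ERRbeta/ERRgamma class (adjusted p = 4.35e-04). 

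Flt1 differed in the same way in EDL, by -0.63 from the ERRalpha class (adjusted p = 0.0318), and the adjusted p ran up to 0.124 over the alternatives. Groups of 3 libraries were not tested for a library far from the others.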

How the results depend on the processing

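No paired analysis was possible because the columns carry no replicate number and the knockout-labelled and wild-type libraries compared come from different animals. This applies to knockout-labelled against wild type and not to the comparisons between muscles. There, 14 of the 22 animals gave a library of each muscle, and the main fit did not pair them. As an alternative, the animals that gave both muscles were entered as a block (correlation 0.137). No value of a member that was called changed sign under any alternative. Under settings other than leaving out a library, 1089 values of single members kept their side of the threshold, 10 came to pass it and 7 ceased to. Leaving out 1 library, the numbers were 1344, 16 and 20. Vegfb remained called in each of its 4 comparisons under each alternative, except soleus of the ERRbeta/ERRgamma class with only its own libraries in the fit.

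The number of members called moved as follows. With only the libraries of the groups compared in the fit it was 3 instead of 5 in EDL of the ERRalpha/ERRgamma class, 0 instead of 1 in soleus of the ERRbeta/ERRgamma class, and 1 instead of 2 for the EDL difference between the ERRalpha/ERRgamma and ERRalpha classes. In soleus of the ERRbeta/ERRgamma class it was 2 with the filter at the median level and 3 with recentring. For the EDL difference from the ERRbeta/ERRgamma class it was 2 instead of 1 under the animal block, the filter at the median level and recentring. Leaving out 1 library gave 2 to 6 in EDL and 1 to 3 in soleus of the ERRalpha/ERRgamma class, and 0 to 1 in soleus of the ERRalpha class. It gave 0 to 1 for the difference between muscles in the ERRalpha/ERRgamma class and in the ERRbeta/ERRgamma class, where Angpt1 was called without soleus dmKO library 2 (-0.76, adjusted p = 0.0487). It gave 1 to 2 for both EDL differences between classes, and 4 to 6 for the wild-type muscles. The cause was not tested.

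The number of all genes called, read beside the members, fell most with only the libraries compared in the fit: from 436 to 201 in EDL of the ERRalpha class, from 29 to 4 in EDL and from 898 to 4 in soleus of the ERRbeta/ERRgamma class, from 95 to 2 in soleus of the ERRalpha class, and from 161 to 29 for the soleus difference between the ERRalpha/ERRgamma and ERRbeta/ERRgamma classes. Leaving out 1 library gave 225 to 303, 11 to 25, 396 to 2139, 25 to 73 and 122 to 323 for these. The counts of 2139 and 323 were without soleus ERRbeta/ERRgamma dmKO library 2. The difference between muscles had 2 calls in the ERRalpha class, with 1 to 9 over the alternatives, and 28 in the ERRbeta/ERRgamma class, with 0 to 521, where 107 was the animal block, 46 the filter at the median level and 14 the fit without an intensity trend.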

Other observations

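A list of 8 coactivators and partners of the ERRs was measured beside the members and belongs to no comparison above. Ppara, a fatty acid sensing nuclear receptor, fell in EDL (-1.64, SE 0.17) and soleus (-1.06, SE 0.17) of the ERRalpha/ERRgamma class and in soleus of the ERRbeta/ERRgamma class (-0.75, SE 0.17). Perm1, a muscle regulator induced by PGC-1 and the ERRs, fell in the same 3 comparisons (-0.95, -0.57 and -0.73). Ppargc1a, which encodes PGC-1alpha, rose in soleus of the ERRalpha/ERRgamma class (1.56, SE 0.45). Fat cell markers had a median difference of -1.25 in EDL of the ERRalpha/ERRgamma class with none of 7 called by limma.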
